A study of Mus musculus with 19 samples.

Results

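Bex1, Ckb, Ndnf, Hspb8, Dpp4, Slco2a1, Procr and Fam3c were described in mouse organoids of lung adenocarcinoma (LUAD) and of alveolar type 2 (AT2) cells. They were chosen as genes with strong expression in AT2 organoids and little in LUAD organoids, on measured values of these same libraries. All 8 were found by gene name in the deposited lists of open reading frames, among 7261 genes that those lists pair with transcripts in the count tables. Because the AT2 and LUAD values chose them, the difference between the tissues is given below as a description, with no test.

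The organoids were of strain C57BL/6, were plated for 48 h and received 100 µM cycloheximide, which stops elongating ribosomes, for 5 min before harvest. The LUAD groups came from tumour organoids and held 4 footprint libraries, 4 RNA libraries and 3 lists of translated open reading frames (ORFs). The AT2 groups came from normal alveolar type 2 organoids and held 3 footprint libraries, 3 RNA libraries and 2 ORF lists. Footprints, the RNA fragments that ribosomes shield from nuclease, were taken with RiboLace, which pulls down active ribosomes. The design text names 3 independent tumour organoids and 2 independent AT2 cultures. It does not say which footprint or RNA libraries come from separate cultures, so p-values here measure the spread between these libraries, which may be technical. The ORF lists of the LUAD group are titled KP, which the labels do not expand, and no label gives an engineered allele.

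The 8 genes work in unrelated places in the cell. Procr, the endothelial protein C receptor, and Dpp4, a peptidase also called CD26, sit on the cell surface and act on coagulation proteases and on peptide signals. Slco2a1 carries prostaglandins across the membrane, and Ndnf and Fam3c are secreted. Ckb, the brain-type creatine kinase, buffers ATP in the cytosol, Hspb8 is a small heat shock protein, and Bex1 is a small adaptor protein encoded on the X chromosome. AT2 cells make surfactant and renew the alveolar lining, and LUAD can arise from them.

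Depth ran from 4803129 to 14249573 estimated counts in LUAD footprint libraries and from 3030290 to 3834358 in AT2 footprint libraries. It ran from 27181932 to 33203742 in LUAD RNA libraries and from 4122819 to 10233520 in AT2 RNA libraries. Trp53 RNA lay between 0 and 4.06 CPM (the count scaled to the size of the library's paired counts) in LUAD and between 123 and 238 CPM in AT2. RNA of Nkx2-1, a lung lineage factor, lay between 0 and 0.377 CPM in LUAD and between 191 and 449 CPM in AT2. Of 26 AT2 marker genes 11 were measured, and their list summed to 1780 to 1909 CPM of RNA in LUAD and to 8360 to 11533 CPM in AT2. AT1 markers, of which 8 of 18 were measured in RNA, summed to 981 to 1338 CPM in LUAD and to 4042 to 10223 CPM in AT2. Both sums were lower in LUAD, but the lists were mixed. Of AT2 markers in RNA 8 fell and 2 rose, Muc1 by 0.87 ± 0.18 and Il33 by 5.17 ± 1.05 (log2), and Ctsh alone held 450 ± 15.3 CPM in LUAD and 5947 ± 375 CPM in AT2. Of AT1 markers 5 fell and 2 rose, Cav1 by 1.88 ± 0.33 and Cav2 by 1.40 ± 0.15. Their part in the values below was not tested. In bulk libraries, fewer cells of a type and less RNA per cell cannot be told apart.

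Across the 8 genes, LUAD levels were below AT2 levels in both assays, and no LUAD library overlapped an AT2 library for any of them. The genes were chosen for such values, so nothing is read from this separation, and its share over all genes is not given here. The genes fell into 3 ranges of LUAD signal. Hspb8, Dpp4 and Ndnf were at or near 0 in LUAD, Bex1, Slco2a1 and Ckb kept between 0.417% and 3.31% of the AT2 mean in either assay, and Procr and Fam3c kept between 5.41% and 18.1%. All 8 passed the filter on low counts in both assays. The median log2 fold change (LUAD over AT2) of the 8 was -6.70 in footprints and -7.03 in RNA, beside -0.02 and 0.03 over all genes tested. In footprints 803 of 6850 genes (11.7%) were called lower in LUAD with edgeR's quasi-likelihood test, and in RNA 1253 of 6935 genes (18.1%). The 8 genes were chosen on this contrast, so nothing is read from their place among those calls. With scaling on all transcripts the median gene shifted up by 0.327 in footprints and by 0.200 in RNA on the log2 scale, and 500 and 852 genes were called lower. With limma on log2(TPM + 0.5) the footprint values of the 8 were smaller in size, from -1.66 for Fam3c to -6.79 for Ndnf.

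**Figure D1:**
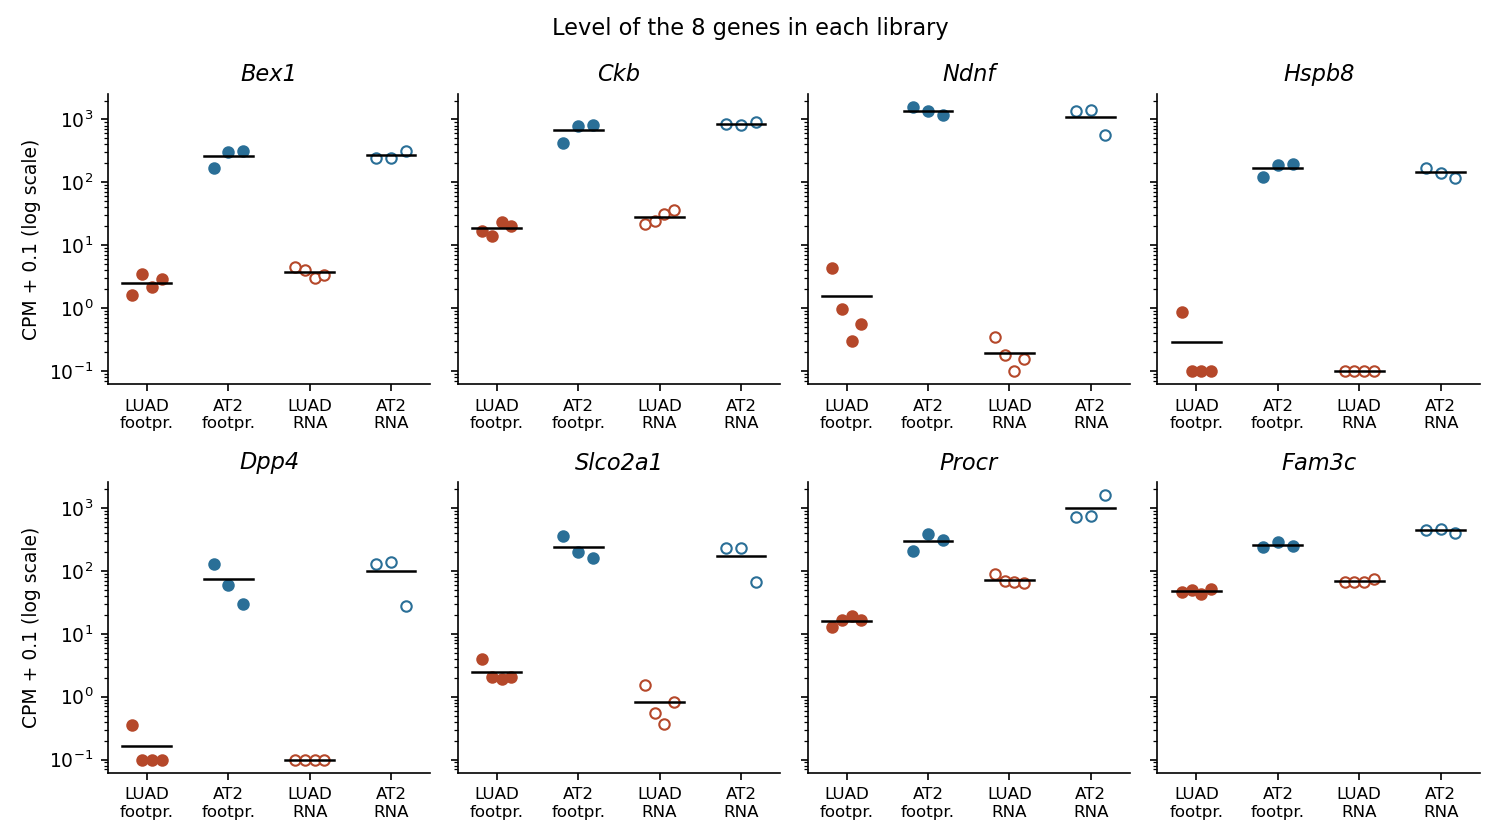
CPM plus 0.1 on a log scale for each gene, with LUAD footprints, AT2 footprints, LUAD RNA and AT2 RNA from left to right. Points are libraries, lines are group means, and filled points are footprints. LUAD points lie below all AT2 points in every panel, with the widest gap for Ndnf, Hspb8 and Dpp4 and the narrowest for Fam3c.

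Among the secreted factors, Ndnf is a neurotrophic glycoprotein with fibronectin type III domains. Per kb of the longest annotated ORF listed, Ndnf had the highest mean AT2 footprint level of the 8 genes. The range of Ndnf overlapped that of Bex1. Ndnf footprints were 4.31, 0.855, 0.197 and 0.469 CPM in the 4 LUAD libraries, against 1585, 1349 and 1159 CPM in the 3 AT2 libraries. Its RNA was 0.248, 0.0827, 0 and 0.0565 CPM in LUAD, against 1359, 1389 and 564 CPM in AT2. Every LUAD library was low, and LUAD library 1 was the highest of them in both assays. The log2 fold change was -10.25 ± 0.85 (SE) in footprints and -13.25 ± 0.64 in RNA, on 34 and 9 counts in all LUAD libraries. Without LUAD library 1 these values were -11.29 and -14.19, so their size depends on that library. Ndnf spans chr6:65671611-65712323 (GRCm38.p6).

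Fam3c, also called ILEI, is a secreted factor known as an inducer of epithelial-mesenchymal transition, and of the 8 it was the best kept in LUAD. Its footprints were 45.9, 50.2, 42.6 and 50.6 CPM in LUAD and 243, 288 and 252 CPM in AT2. Its RNA was 65.4, 66.0, 66.0 and 73.3 CPM in LUAD and 450, 465 and 407 CPM in AT2. Replicates of either tissue lay close together in both assays. The log2 fold change was -2.46 ± 0.16 in footprints and -2.70 ± 0.14 in RNA, where LUAD kept 18.1% and 15.4% of the AT2 mean. With scaling on all transcripts the values were -2.14 and -2.51. Fam3c spans chr6:22306520-22356081.

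Of the membrane proteins, Procr binds protein C and promotes its activation by thrombin bound to thrombomodulin. Procr footprints were 12.9, 16.3, 19.0 and 16.2 CPM in LUAD, against 206, 385 and 304 CPM in AT2. Procr RNA was 88.2, 68.6, 66.6 and 64.6 CPM in LUAD, against 711, 738 and 1594 CPM in AT2, with AT2 library 3 above the other two. Some Procr signal therefore remained in every LUAD library. The log2 fold change was -4.20 ± 0.26 in footprints and -3.82 ± 0.32 in RNA, and the RNA value was -3.33 without AT2 library 3. Procr spans chr2:155751125-155755478.

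Slco2a1 takes up prostaglandins for breakdown inside the cell. Its footprints were 3.81, 1.97, 1.78 and 1.97 CPM in LUAD and 355, 196 and 159 CPM in AT2. Its RNA was 1.45, 0.455, 0.269 and 0.734 CPM in LUAD and 229, 228 and 65.6 CPM in AT2. LUAD library 1 was the highest LUAD library in both assays. In AT2, library 1 stood high in footprints and library 3 stood low in RNA. The log2 fold change was -6.70 ± 0.41 in footprints and -7.87 ± 0.67 in RNA, and the RNA value was -8.47 without LUAD library 1. Slco2a1 spans chr9:103007061-103096002.

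Dpp4 cuts dipeptides from the ends of incretins and chemokines. Its footprints were 0.254, 0, 0 and 0 CPM in LUAD, the first from 1 count, and 130, 60.3 and 29.5 CPM in AT2. Its RNA was 0 in all 4 LUAD libraries and 128, 138 and 27.9 CPM in AT2. Dpp4 had the widest spread between AT2 libraries of the 8 genes in both assays, relative to its mean. AT2 footprints exceeded LUAD footprints by a ratio of 2178 of pooled counts over library size (exact 95% interval 388 to 86239), from 1 LUAD count and 370 AT2 counts. The ratio of the mean CPM, which weights libraries equally, was 1154. LUAD RNA was at least 3303-fold lower, taking 3 counts over the whole LUAD group as the floor. Intervals and floors here cover counting error only. Dpp4 spans chr2:62330073-62412315.

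In the cytosol, Hspb8 joins the co-chaperone BAG3 to hand misfolded proteins to autophagy. Its footprints were 0.761, 0, 0 and 0 CPM in LUAD, the first from 3 counts, and 120, 188 and 196 CPM in AT2. Its RNA was 0 in all 4 LUAD libraries and 170, 142 and 119 CPM in AT2. As for Dpp4, all LUAD signal came from footprints of library 1, the LUAD library with the fewest counts. The AT2 over LUAD ratio of footprints, from 3 LUAD counts and 1110 AT2 counts, was 2178 as well (exact 95% interval 743 to 10575). The ratio of the mean CPM was 884, and LUAD RNA was at least 4230-fold lower. Hspb8 spans chr5:116408491-116422864.

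Ckb transfers phosphate between creatine and ATP. Its footprints were 17.0, 13.7, 23.1 and 19.8 CPM in LUAD and 430, 791 and 815 CPM in AT2. Its RNA was 21.8, 24.2, 31.1 and 36.3 CPM in LUAD and 832, 831 and 911 CPM in AT2. AT2 footprint library 1 was low, while AT2 RNA libraries agreed closely. The log2 fold change was -5.20 ± 0.32 in footprints and -4.92 ± 0.22 in RNA. Ckb spans chr12:111669355-111672338.

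Bex1 binds the neurotrophin receptor p75 and is known from neural tissue. Its footprints were 1.52, 3.33, 2.07 and 2.81 CPM in LUAD and 171, 302 and 319 CPM in AT2. Its RNA was 4.38, 3.97, 2.90 and 3.27 CPM in LUAD and 245, 243 and 318 CPM in AT2. LUAD levels were low but above 0 in every library. The log2 fold change was -6.70 ± 0.35 in footprints and -6.20 ± 0.22 in RNA. Its paralog Bex2 is similar in sequence, so how reads were divided between the 2 genes is uncertain. Bex1 spans chrX:136213972-136215513.

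Set on a scale per length, the order of the 8 genes differed between tissues. In LUAD RNA, Procr (34.2 ± 8.55 TPM, SD) and Fam3c (27.5 ± 4.30 TPM) led with overlapping ranges, followed by Ckb (13.9 ± 1.97 TPM) and Bex1 (3.48 ± 1.03 TPM). Slco2a1 came next at 0.118 ± 0.0651 TPM, and Ndnf, Hspb8 and Dpp4 followed at or near 0 with ranges that overlapped. In AT2 RNA, Procr (476 ± 147 TPM) and Ckb (458 ± 47.1 TPM) led with overlapping ranges. Bex1 (266 ± 1.83 TPM) and Fam3c (192 ± 46.9 TPM) were apart from their neighbours, as far as the ranges of 3 libraries show. Ndnf (82.2 ± 42.5 TPM) overlapped Hspb8 (62.2 ± 19.0 TPM), and Slco2a1 (20.5 ± 13.3 TPM) overlapped Dpp4 (14.5 ± 9.79 TPM). TPM is the deposited level per transcript length.

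Footprints were put on a scale per kb of the longest annotated ORF listed for the gene, which need not be the ORF that holds the counts. For Fam3c that ORF has 741 nt, but 73.1% of AT2 footprint counts were assigned to a transcript with a 99-codon ORF. For Slco2a1 it has 1929 nt, but 82.7% were assigned to a transcript with a 414-codon ORF. The places of these 2 genes therefore depend on the ORF used. In LUAD, Fam3c led with 63.9 ± 5.10 CPM per kb, and Procr (22.2 ± 3.44) and Ckb (16.1 ± 3.50) overlapped behind it. Bex1 followed with 6.34 ± 2.08 CPM per kb, and the other 4 genes were at 1.23 or less with overlapping neighbours. In AT2, Ndnf had 800 ± 125 CPM per kb and Bex1 687 ± 212, and each gene down to Hspb8 (286 ± 71.3) overlapped the next. Slco2a1 (123 ± 54.0) and Dpp4 (32.1 ± 22.5) were lower, each apart from its neighbours. By mean, Ndnf was first of the 8 in AT2 footprints per coding kb and behind Procr, Ckb, Bex1 and Fam3c in AT2 TPM. These scales divide by unlike lengths, for Ndnf 1704 nt of ORF and 10101 nt of transcript, so the places cannot be compared. In CPM, Ndnf had the highest AT2 mean of the 8 in both assays. Its AT2 RNA was at 1104 ± 468 CPM, beside 1014 ± 502 CPM for Procr.

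The question of whether translation changed beyond RNA was addressed with the ratio of footprints to RNA. A single edgeR model of all 14 libraries held a term for tissue by assay. That term was called for 50 of 7082 genes (0.706%), in either direction. For the 8 genes the values are descriptive, since both contrasts chose them. The log2 difference of footprints per RNA (LUAD minus AT2) was -0.43 ± 0.38 (SE) for Bex1, -0.21 ± 0.36 for Ckb, -0.31 ± 0.41 for Procr and 0.32 ± 0.20 for Fam3c. It was 1.23 ± 0.74 for Slco2a1 and 2.99 ± 1.07 for Ndnf, whose LUAD values rest on few counts. The Ndnf value was 1.93 without LUAD footprint library 1 and 3.86 without LUAD RNA library 1. Hspb8 and Dpp4 had no LUAD RNA count and are given no value. For the 4 genes with the most LUAD counts the difference thus lay between -0.43 and 0.32, against fold changes of -2.46 or below in footprints.

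**Figure D2:**
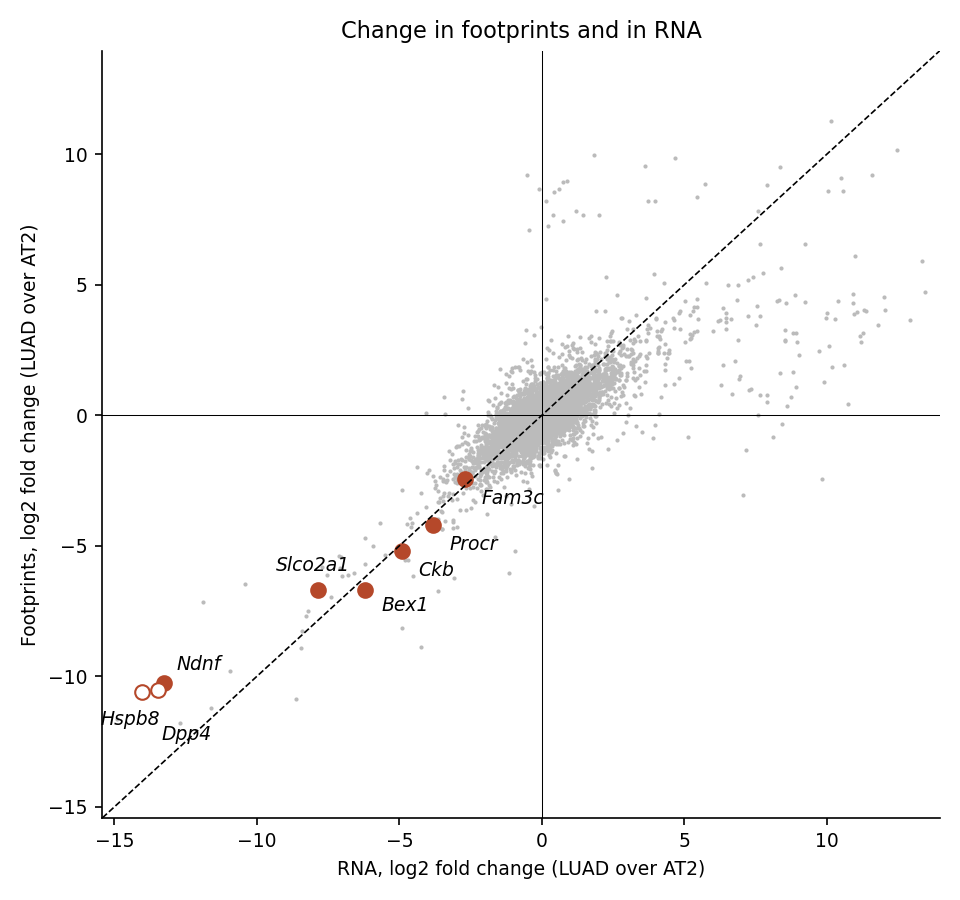
Log2 fold change (LUAD over AT2) in RNA on the x axis and in footprints on the y axis, with grey points for the other genes tested in both assays and a dashed line of equal change. Hollow points mark Hspb8 and Dpp4, with at most 3 LUAD counts in an assay, whose fitted position depends on the prior count. Fam3c, Procr, Ckb and Bex1 lie near the line, and Ndnf and Slco2a1 lie above it.

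Within AT2, the log2 ratio of footprint CPM to RNA CPM was -1.77 for Procr, -0.76 for Fam3c, -0.42 for Dpp4 and -0.34 for Ckb. It was -0.03 for Bex1, 0.23 for Hspb8, 0.30 for Ndnf and 0.44 for Slco2a1. Over the 4669 genes that average 50 counts or more per AT2 library in both assays, the median ratio was 0.19 and the 10th and 90th percentiles were -1.12 and 1.71. Procr was below this central range and the other 7 genes were within it. The 2 assays were scaled separately, so only the order of genes on this ratio carries meaning.

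AT2 libraries differed among themselves in a way that followed transcript length. In AT2 footprint library 1, the median deviation from the AT2 mean was -0.44 (log2) for 766 genes whose longest listed transcript is below 1500 nt and 0.39 for 1706 genes above 5000 nt. In AT2 RNA library 3 it was 0.24 for 771 short genes and -0.31 for 1714 long genes. LUAD libraries 1 and 2 also stood against 3 and 4, with median deviations of short genes between -0.20 and -0.18 in the first pair and between 0.19 and 0.22 in the second. Of the 8 genes, the 3 longest and 4 shorter ones moved in opposite directions. Dpp4 (5268 nt), Slco2a1 (7122 nt) and Ndnf (10101 nt) were higher in AT2 footprint library 1 than in the other two, by 0.34 to 1.53 on the log2 scale. Bex1 (866 nt), Procr (1608 nt), Hspb8 (1816 nt) and Ckb (2839 nt) had log2 ratios of -0.86, -0.74, -0.68 and -0.90 in that library. These lengths are of the longest listed transcript, which need not hold the counts. For Ckb the 2839-nt transcript held 0.259% of AT2 footprint counts and a 1472-nt transcript 99.7%. For Slco2a1 the 7122-nt transcript held 17.3%.

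In AT2 RNA library 3 the same 3 long genes had log2 ratios to the other two libraries of -2.25 for Dpp4, -1.80 for Slco2a1 and -1.28 for Ndnf. Procr had 1.14 and Bex1 0.38 there, and Ckb, Fam3c and Hspb8 lay between -0.39 and 0.13. The spread of the long genes between AT2 libraries was thus large. The lowest AT2 value of each stayed above its highest LUAD value, which the choice of these genes favours. The part of transcript length in these values was not tested.

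**Figure D3:**
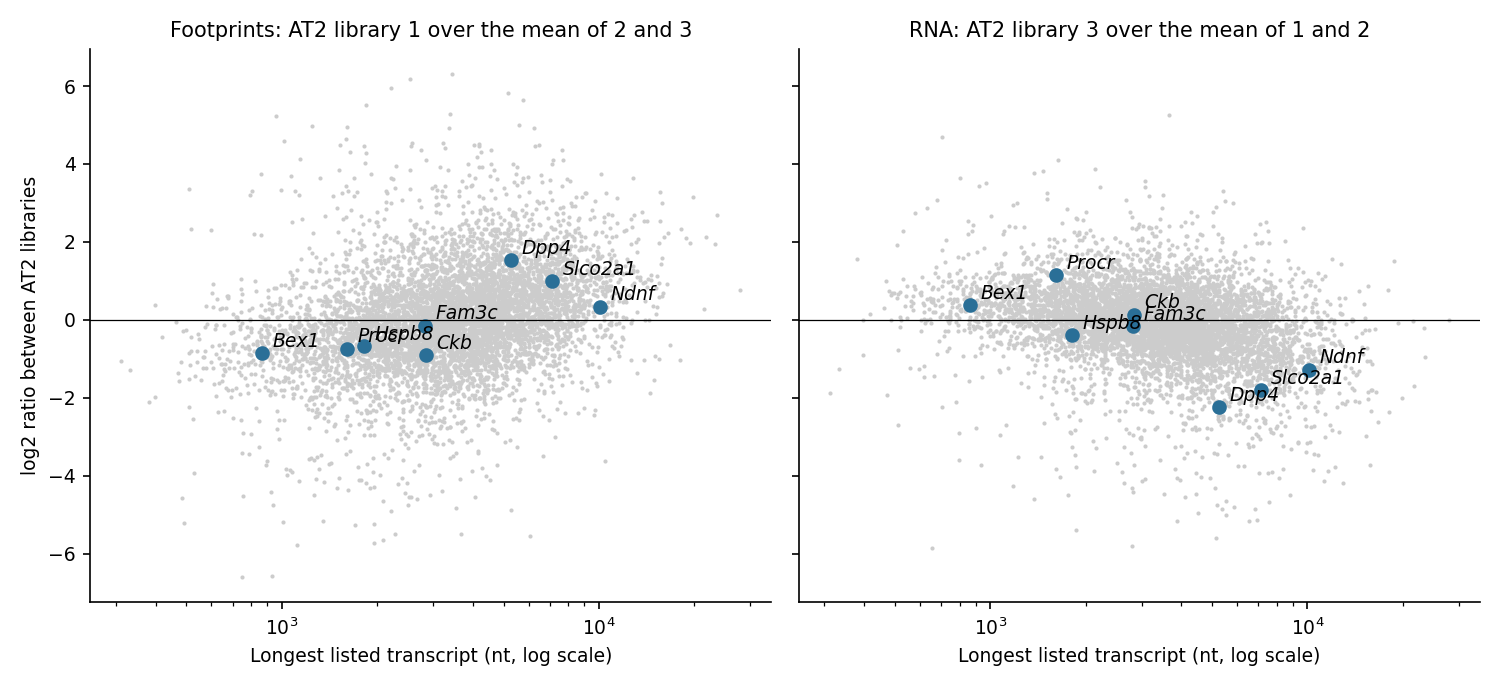
Log2 ratio between AT2 libraries against the longest listed transcript of each gene (nt, log scale), for footprints of library 1 over libraries 2 and 3 (left) and RNA of library 3 over libraries 1 and 2 (right). Grey points are genes tested in both assays, with 1 CPM added, and blue points are the 8 genes. Dpp4, Slco2a1 and Ndnf lie above 0 on the left and below -1 on the right.

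Counts were also divided among the transcripts of a gene, as kallisto estimated them. For Ckb, 1 transcript of 1472 nt held 99.2% of LUAD and 99.7% of AT2 footprint counts, and for Bex1 1 transcript of 866 nt held 100% and 98.4%. Ndnf, Hspb8 and Dpp4 have 1 listed transcript each. For Fam3c the estimated shares differed between assays. Its 775-nt transcript, which carries an ORF of 99 codons, held 83.7% of LUAD and 73.1% of AT2 footprint counts but 2.35% of LUAD and 3.13% of AT2 RNA counts. Its transcripts of 1487 nt and 2826 nt together held most Fam3c RNA in both tissues, with 53.8% and 39.5% in LUAD and 46.0% and 40.9% in AT2. By library, the 775-nt share of footprints ran from 77.7% to 88.1% in LUAD and from 48.4% to 80.5% in AT2, and its share of RNA stayed at or below 5.17%.

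For Slco2a1 the shares were less fixed. Its 2196-nt transcript, with an ORF of 414 codons, held 54.4% of LUAD and 82.7% of AT2 footprint counts. In RNA it held 26.6% of LUAD counts, from 64 counts in all, and 3.97% of AT2 counts. By library its share ran from 24.5% to 91.5% in LUAD footprints, from 0 to 74.2% in LUAD RNA and from 0 to 8.61% in AT2 RNA. Without LUAD library 1, which had none of it in RNA, the LUAD RNA share was 58.3%. The 7122-nt transcript with the 643-codon ORF held the rest. For Procr, the 1608-nt transcript held 32.7% of LUAD and 34.2% of AT2 footprint counts but 2.38% and 5.32% of RNA counts. Its LUAD footprint share ran from 18.8% to 94.5% between libraries, so the split is poorly fixed. These transcripts share coding sequence, and division of short footprints among them is an estimate.

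**Figure D4:**
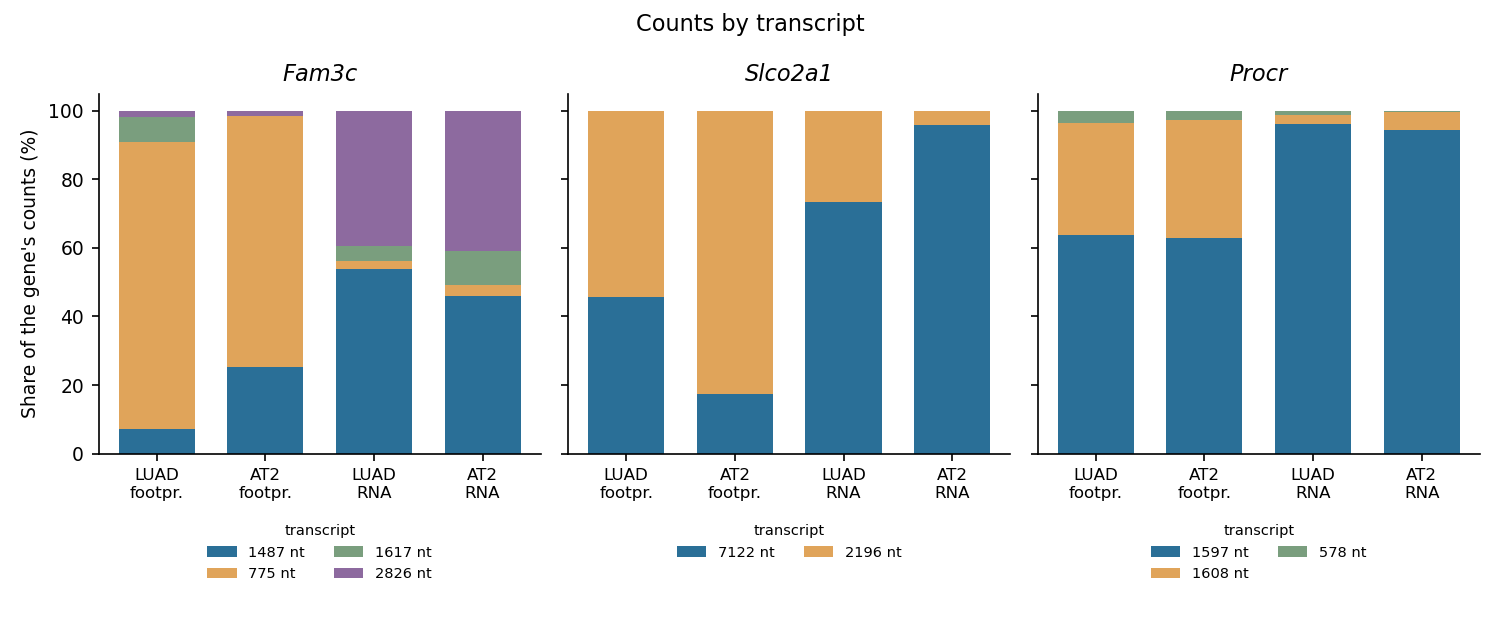
Share of a gene's estimated counts (%) on each listed transcript, pooled over the libraries of a group, for Fam3c, Slco2a1 and Procr. Bars are LUAD footprints, AT2 footprints, LUAD RNA and AT2 RNA from left to right, and colours are transcripts by length. The 775-nt Fam3c transcript is assigned most footprints and little RNA in either tissue.

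The ORF lists give another view, built from ribosomal P-sites (the codon position of the peptidyl site) by reading frame. The sources used here do not say whether they share libraries with the footprint counts, and the numbers of lists and libraries need not match. LUAD list 1 held 110 P-sites on the 242-codon Procr ORF, beside 51.5 Procr counts in LUAD footprint library 1. Bex1, Ckb, Ndnf and Dpp4 were listed in AT2 list 2 alone and Hspb8 in AT2 list 1 alone. Slco2a1 was listed in LUAD list 1 and AT2 list 2, Fam3c in LUAD lists 1 and 2 and AT2 list 2, and Procr in LUAD lists 1 and 3 and in no AT2 list. The LUAD lists cover 5212, 3646 and 2613 genes and the AT2 lists 1558 and 2165. Although no AT2 list holds Procr, its AT2 footprint CPM exceeded its LUAD CPM 18.5-fold.

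In those lists the authors' RPKM (P-sites in frame, scaled for length and depth) of the 197-codon Fam3c ORF was 3.29 and 4.95 in LUAD lists 1 and 2 and 21.5 in AT2 list 2. For the 227-codon Fam3c ORF it was 6.21 and 4.30 in LUAD and 19.7 in AT2. Slco2a1 had 0.658 on its 643-codon ORF in LUAD list 1 and 5.67 on its 414-codon ORF in AT2 list 2, which are different ORFs. The 242-codon Procr ORF had 8.74 in LUAD list 1, and a shorter Procr ORF of 123 codons that is not annotated had 8.25 in LUAD list 1 and 11.5 in LUAD list 3. Each value is from 1 list, with no replicate check.

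Reading frames could be followed for the AT2 ORFs. The 381-codon ORF of Ckb had 35, 14 and 15 P-sites in frames 0, 1 and 2, so that 54.7% were in frame. Ndnf had 45, 29 and 18 on its 568 codons (48.9% in frame), and Bex1 had 19, 7 and 8 on its 128 codons (55.9%). Dpp4 had 7, 2 and 2 on 760 codons (63.6%) and Hspb8 6, 2 and 3 on 196 codons (54.5%). The median ORF had 54.8% in frame in AT2 list 2 and 55.6% in AT2 list 1. Ndnf thus lay below the median of its list and Dpp4 above it, while Ckb, Bex1 and Hspb8 were close to it. These shares rest on few P-sites, so the side of the median on which a gene lies is poorly fixed. Of Ckb, AT2 list 2 also held 2 ORFs of 134 and 104 codons that share its start and are not annotated.

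Sequences upstream of the start sites were looked at because the 8 genes are low in LUAD together. RefSeq (GRCm38.p6) gives a start-site window for 7 of the 8, all but Ndnf. The last 120 bases before the start are shown for the 4 genes whose window lies outside the annotated gene span. Capitals mark matches on either strand to the TATA box (letters TATAAA), the GC box (letters GGGCGG), the CCAAT box, or the core bound by NK2 homeobox factors such as NKX2-1 (letters CAAGTG). The heat shock element core (letters GAANNTTC) was searched too, and no matches overlapped in these stretches.
Ckb (chr12:111672339-111672458, minus strand): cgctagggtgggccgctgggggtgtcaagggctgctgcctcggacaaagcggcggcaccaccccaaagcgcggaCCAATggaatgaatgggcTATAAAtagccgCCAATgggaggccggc
Bex1 (chrX:136215514-136215633, minus strand): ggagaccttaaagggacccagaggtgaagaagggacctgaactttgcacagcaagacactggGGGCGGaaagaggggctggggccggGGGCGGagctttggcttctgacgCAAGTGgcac
Hspb8 (chr5:116422865-116422984, minus strand): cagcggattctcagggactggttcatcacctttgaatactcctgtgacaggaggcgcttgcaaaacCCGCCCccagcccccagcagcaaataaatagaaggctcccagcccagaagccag
Fam3c (chr6:22356082-22356201, minus strand): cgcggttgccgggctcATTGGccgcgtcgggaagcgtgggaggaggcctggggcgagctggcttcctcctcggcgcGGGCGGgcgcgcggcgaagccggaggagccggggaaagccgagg

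These windows had little in common. Within 250 bases before the start, TATAAA was found in Ckb at 28, in Slco2a1 at 29 and in Dpp4 at 227 bases before it, and 12.4% of 32851 RefSeq windows of that length held it. GGGCGG was found in Hspb8, Fam3c, Slco2a1 and Bex1 (32.7% of windows), and CCAAT in Ckb and Fam3c (33.8%). CAAGTG was found in Bex1 and Dpp4 (11.6%), and GAANNTTC in Dpp4 alone (6.69%), with no match in Hspb8. GC content ran from 43.6% in Dpp4 to 73.6% in Fam3c around a median of 52.4% over all windows. The observed over expected CpG ratio ran from 0.19 in Bex1 to 1.02 in Fam3c, beside a median of 0.37. Matches are descriptions of letters and were tied to no factor or level.

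Relatives and pathway partners of the 8 genes were then followed in the same fits, from lists of 138 genes. Of these, 54 were measured in footprints and 55 in RNA. In footprints 16 fell (29.6%) and 9 rose (16.7%) in LUAD, beside 11.7% and 9.42% of all genes. In RNA 13 fell (23.6%) and 15 rose (27.3%), beside 18.1% and 19.1% of all genes. Their median log2 fold change was -0.14 in footprints and -0.19 in RNA. Of the footprint calls, 10 falls and 5 rises were kept when any 1 library was left out, and of the RNA calls 9 and 11. With limma on log2(TPM + 0.5), 3 of the 16 footprint falls passed, those of Ckmt1, Gas6 and Fgfr3. In that setting, which used TPM as deposited, every one of these footprint falls was smaller in size and every rise larger. Bex3, for example, went from -1.98 to -1.22 (log2) and Abcc4 from 1.42 to 2.20. A footprint fall lost in that setting therefore need not be particular to its gene.

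**Figure D5:**
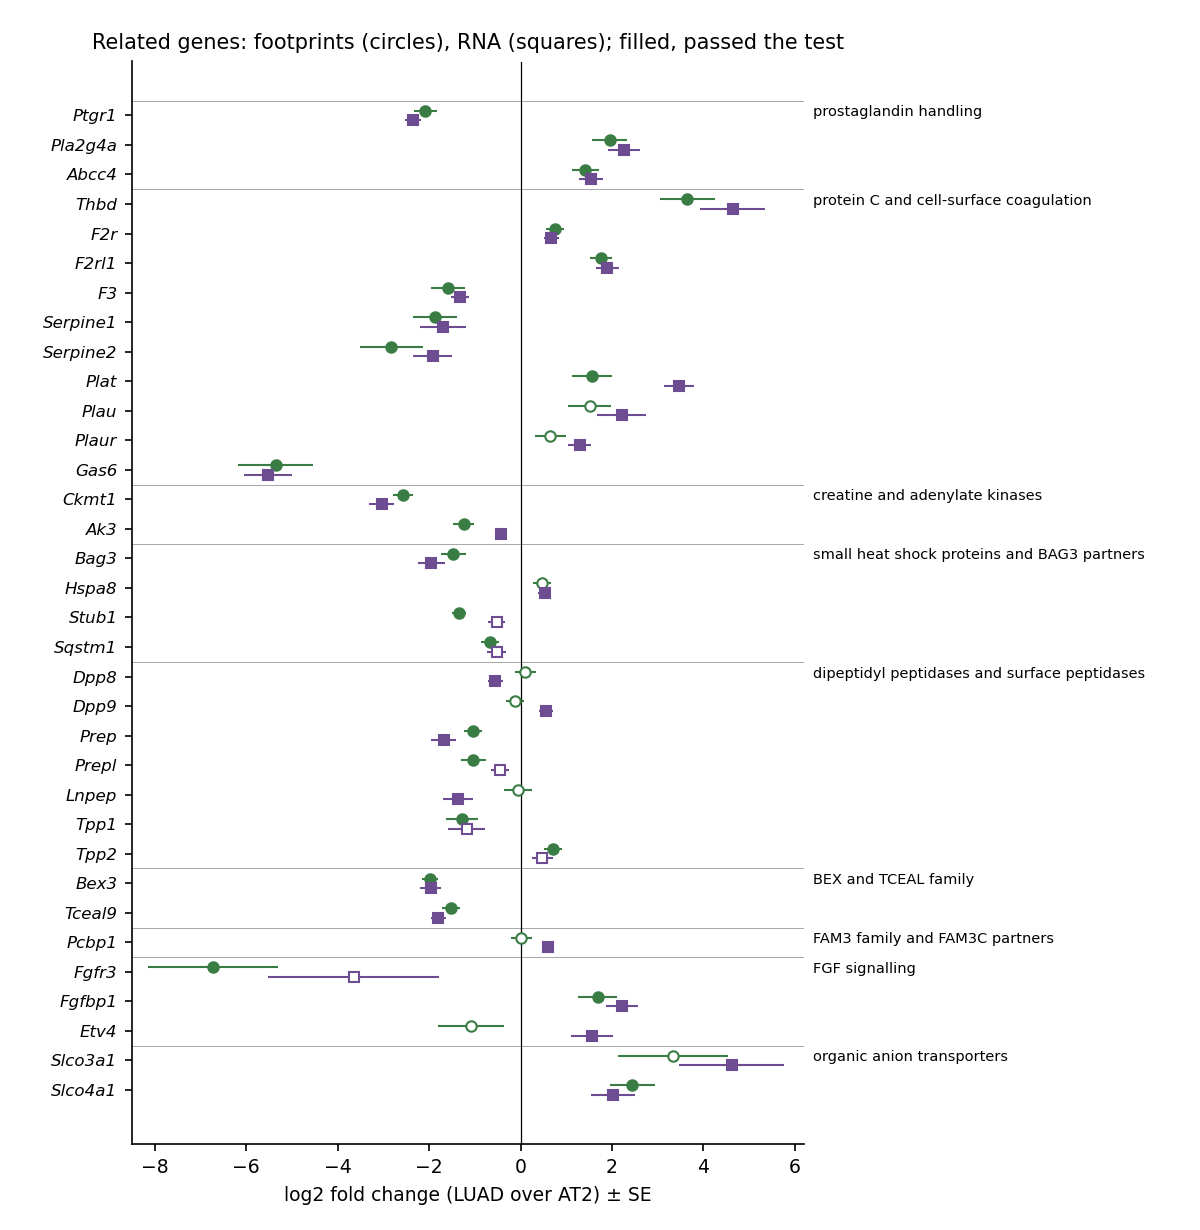
Log2 fold change (LUAD over AT2) with its SE for each listed relative or partner that passed the test in at least 1 assay, in footprints (circles) and RNA (squares), grouped by list. Filled symbols passed at an adjusted p under 0.05. In both assays Thbd and Slco3a1 lie to the right of 3 and Gas6 and Fgfr3 to the left of -3.

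Around Procr, the protein C and cell-surface coagulation genes moved in both directions. Of 10 measured, 4 fell and 4 rose in footprints, and 4 fell and 6 rose in RNA. Thbd, encoding thrombomodulin, the cofactor for protein C activation, rose with a log2 fold change of 3.65 ± 0.61 in footprints (adjusted p = 0.00528, edgeR) and 4.64 ± 0.71 in RNA (adjusted p = 0.00200). Its RNA was 39.4 ± 1.03 CPM in LUAD and 1.36 ± 1.90 CPM in AT2 (SD, n = 4 and 3), opposite to Procr. The size of the Thbd change depends on single libraries, with 6.63 in RNA without AT2 library 1 and 4.53 in footprints without AT2 library 3. F2rl1, encoding the protease-activated receptor PAR2, rose by 1.75 ± 0.24 (log2) and 1.90 ± 0.26, and Plat, the tissue plasminogen activator, rose by 3.46 ± 0.33 in RNA. Gas6, a ligand of TAM receptors that resembles protein S, fell, with a log2 fold change of -5.36 ± 0.82 in footprints (adjusted p = 0.00370) and -5.52 ± 0.53 in RNA (adjusted p = 0.000239), and had -4.41 in footprints without AT2 library 1. F3, tissue factor, fell, with a log2 fold change of -1.33 ± 0.20 in RNA and -1.59 ± 0.38 in footprints. The footprint call of F3 was lost when any LUAD library or AT2 library 2 or 3 was left out, at an adjusted p of up to 0.0753, and with limma on log2(TPM + 0.5), at 0.33.

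Around Slco2a1, 7 of 21 prostaglandin genes were measured, of which 1 fell and 2 rose in either assay. Ptgr1, which reduces prostaglandin breakdown products, fell, with a log2 fold change of -2.08 ± 0.25 in footprints (adjusted p = 0.00129, edgeR) and -2.35 ± 0.17 in RNA (adjusted p = 8.05e-05). Its footprint call was lost with limma on log2(TPM + 0.5) (-1.37, adjusted p = 0.0843). Pla2g4a, the phospholipase that frees arachidonic acid, rose by 1.95 ± 0.38 (log2) and 2.27 ± 0.35, and Abcc4, an exporter of prostaglandins, rose by 1.42 ± 0.30 and 1.54 ± 0.27. The cyclooxygenase genes did not pass. Ptgs2 had a log2 fold change of 1.26 ± 0.40 in footprints (adjusted p = 0.0588) and 1.10 ± 0.46 in RNA (adjusted p = 0.0924), and Ptgs1 had 0.57 ± 0.36 and 0.13 ± 0.38. Of 9 other organic anion transporters 2 were measured. Slco4a1 rose by 2.44 ± 0.49 (log2) in footprints and by 2.03 ± 0.48 in RNA, and Slco3a1 rose by 4.62 ± 1.15 in RNA alone. Its 10 AT2 counts were all in library 2, so its size is poorly fixed, with 10.73 without that library and 3.96 without AT2 library 1.

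Around Dpp4, 9 of 18 peptidase genes were measured, with 3 falling and 1 rising in either assay. Prep, a cytosolic prolyl peptidase, fell, with a log2 fold change of -1.04 ± 0.20 in footprints (adjusted p = 0.00874, edgeR) and -1.68 ± 0.27 in RNA (adjusted p = 0.00233). Its footprint call was lost with limma on log2(TPM + 0.5) (-0.40, adjusted p = 0.596). The family members Dpp3 and Dpp7 did not pass in either assay, with log2 fold changes of -0.43 ± 0.21 and 0.00 ± 0.45 in footprints. Dpp8 fell, with a log2 fold change of -0.55 ± 0.17 in RNA alone, a call lost without any library but LUAD library 1, with a replicate block (-0.48, adjusted p = 0.082) and with scaling on all transcripts. Dpp9 rose by 0.55 ± 0.15 (log2) in RNA alone, a call lost without LUAD library 2, 3 or 4 or AT2 library 1 or 2 (adjusted p up to 0.0897), and with limma on log2(TPM + 0.5) (adjusted p = 0.108). In footprints Dpp8 had 0.10 ± 0.23 and Dpp9 -0.12 ± 0.20. Prepl fell in footprints (-1.03, log2) and Tpp2 rose (0.71, log2). The call of Prepl was lost without any 1 LUAD library or AT2 library 2 (adjusted p up to 0.0953), with scaling on all transcripts (adjusted p = 0.087) and with a replicate block (adjusted p = 0.0863). That of Tpp2 was lost without any 1 library other than LUAD library 1 (adjusted p up to 0.0929) and with a replicate block (adjusted p = 0.127). With limma on log2(TPM + 0.5) neither passed (adjusted p = 0.653 for Prepl and 0.0782 for Tpp2). Lnpep fell in RNA (-1.37, log2), a call lost without AT2 library 1 or 2 (adjusted p up to 0.0524). Fap and Dpp10 were not measured.

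Around Hspb8, no other small heat shock protein was measured, and 8 of 22 listed genes were measured in footprints and 9 in RNA. Bag3, its partner, fell, with a log2 fold change of -1.47 ± 0.28 in footprints (adjusted p = 0.00828, edgeR) and -1.95 ± 0.30 in RNA (adjusted p = 0.00198). With limma on log2(TPM + 0.5) its footprint call was lost (-0.72, adjusted p = 0.285). Bag3 RNA was 37.2 ± 9.87 CPM in LUAD and 143 ± 49.0 CPM in AT2. Stub1, the ubiquitin ligase CHIP of the same complex, fell, with a log2 fold change of -1.35 ± 0.16 in footprints (adjusted p = 0.00115) and had -0.52 ± 0.19 in RNA (adjusted p = 0.0674). Its footprint call was also lost with TPM (-0.70, adjusted p = 0.402). Hspa8, the constitutive HSC70, rose by 0.53 ± 0.14 (log2) in RNA, a call that was lost without LUAD library 2 or AT2 library 1 or 2 (adjusted p up to 0.0863). Bag1 and Bag2 did not pass, with footprint values of -0.38 ± 0.21 and -0.32 ± 0.33.

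Around Ckb, 5 of 12 creatine and adenylate kinase genes were measured, and 2 fell in either assay. Ckmt1, the mitochondrial creatine kinase, fell, with a log2 fold change of -2.57 ± 0.22 in footprints (adjusted p = 0.000410, edgeR) and -3.04 ± 0.28 in RNA (adjusted p = 0.000198). Its footprints were 10.3 ± 1.06 CPM in LUAD and 61.1 ± 1.83 CPM in AT2. Ak3 fell, with a log2 fold change of -1.24 ± 0.23 in footprints and -0.42 ± 0.13 in RNA, and the RNA call was lost without any library but AT2 library 3 (adjusted p up to 0.101), with a replicate block (-0.40, adjusted p = 0.0583) and with scaling on all transcripts. With limma on log2(TPM + 0.5) Ak3 passed in neither assay, at an adjusted p of 0.458 in footprints and 0.0595 in RNA. Slc6a8, the creatine transporter, did not pass, with -0.43 ± 0.32 in footprints and -0.59 ± 0.33 in RNA.

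Of the BEX and TCEAL family, small X-linked genes like Bex1, 2 of 11 were measured and both fell in both assays. Bex3 fell, with a log2 fold change of -1.98 ± 0.17 in footprints (adjusted p = 0.000390, edgeR) and -1.97 ± 0.22 in RNA (adjusted p = 0.000430). Its footprint call was lost with limma on log2(TPM + 0.5) (-1.22, adjusted p = 0.18). Tceal9 fell, with a log2 fold change of -1.52 ± 0.19 in footprints (adjusted p = 0.00157) and -1.80 ± 0.16 in RNA (adjusted p = 0.000173). Its footprint call was likewise lost (-0.84, adjusted p = 0.383). Bex3 RNA was still 368 ± 17.5 CPM in LUAD, against 1438 ± 430 CPM in AT2.

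No other FAM3 gene was measured. Of 4 measured partners of Fam3c, Pcbp1, an RNA-binding protein that represses its translation, rose by 0.59 ± 0.13 (log2) in RNA (adjusted p = 0.00984, edgeR) and had 0.01 ± 0.23 in footprints. Lifr, a subunit of a receptor for the secreted factor, had 0.96 ± 0.54 in footprints and 1.87 ± 0.91 in RNA and did not pass. For Ndnf, which acts beside FGF signals in development, 7 of 19 FGF genes were measured. Fgfr3 fell, with a log2 fold change of -6.73 ± 1.42 in footprints (adjusted p = 0.0133), from 8 LUAD counts, all in library 3, and 118 AT2 counts, and had -3.65 ± 1.87 in RNA (adjusted p = 0.157). The Fgfr3 footprint value was -10.08 without LUAD library 3 and -5.54 without AT2 library 1, so its size is poorly fixed. Fgfbp1, an FGF carrier, rose by 2.21 ± 0.35 (log2) in RNA and by 1.69 ± 0.43 in footprints, the footprint call being lost without LUAD library 3 or 4 or AT2 library 3 (adjusted p up to 0.0656). Etv4 rose by 1.57 ± 0.46 (log2) in RNA, a call lost without LUAD library 1, 3 or 4 or AT2 library 1 or 2 (adjusted p up to 0.103), and 2.41 without AT2 library 3, and had -1.08 ± 0.72 in footprints.

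Markers of other cell types were read beside these values, because Procr and Slco2a1 are also known from endothelium. Of 16 endothelial markers only 1 was paired with a transcript, and it was at 0 in all AT2 libraries of both assays. The other endothelial markers were not analysed here. Of 14 fibroblast markers 2 were measured, of which Bgn rose by 4.59 ± 0.47 (log2) in footprints and by 8.88 ± 0.70 in RNA. The other, Fn1, did not pass, with a log2 fold change of -0.81 ± 0.30 in footprints and -0.54 ± 0.36 in RNA. The footprint sum of both was 1194 to 2371 CPM in LUAD and 2768 to 3400 CPM in AT2. Their RNA sum went the other way, with 337 to 688 CPM in LUAD and 191 to 414 CPM in AT2, in ranges that overlapped. Of 15 macrophage and leukocyte markers 2 were measured and both rose, summing to 150 to 200 CPM of RNA in LUAD and to 6.78 to 19.4 CPM in AT2. The 1 measured basal marker, Lamb3, fell, with a log2 fold change of -1.23 ± 0.21 in footprints, and no club cell marker was measured. The part of other cell types in the values of the 8 genes was not tested.

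Genes with the profile most like that of the 8 were ranked by Pearson's r across the 7 libraries of an assay, averaged over both assays, among 4626 candidates. The 6 highest were H2-D1 (0.9975), Exoc4 (0.9934), Lhfp (0.9933), Sesn2 (0.9921), Cyb5r3 (0.9916) and Baiap2 (0.9913). With 2 tissues that differ, r mainly follows the split of LUAD and AT2 libraries. Sesn2, a stress-induced sestrin, had footprints of 7.34 ± 0.353 CPM in LUAD and 94.9 ± 31.0 CPM in AT2. Lhfp, encoding a tetraspan membrane protein, had 31.7 ± 6.53 CPM in LUAD and 317 ± 52.5 CPM in AT2. H2-D1, an MHC class I gene whose near-identical copies make its counts uncertain, had 367 ± 24.0 CPM in LUAD and 1113 ± 1.66 CPM in AT2. The levels of the other 3 in LUAD footprints were 87.7, 291 and 65.2 CPM for Exoc4, Cyb5r3 and Baiap2, against 289, 611 and 197 CPM in AT2.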

How the data were processed

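Footprint and RNA tables hold estimated counts for each transcript, which the authors obtained with kallisto, per the submitters' processing notes. The sources used here give no kallisto version or transcript release. The deposited TPM served for levels per length and in an alternative. ORF lists hold, per the file headers, counts of P-sites, a deposited RPKM and the authors' p-value, on mm10 per the submitters' processing notes. The labels repeat the footprint protocol for RNA libraries, so their preparation is unknown here.

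The ORF lists supplied the gene of each transcript (22509 of 118489 transcripts, holding 65.0% to 70.0% of a library's counts). Most listed genes (4187) appear in LUAD lists without AT2 lists, 572 in AT2 lists without LUAD lists, and 2620 in lists of both tissues. Of these 7379 genes, 7261 had a transcript in the count tables. Counts were summed to genes and rounded. The test was edgeR 4.0.16 (R 4.3.3), run per assay as LUAD over AT2 with TMM scaling, filterByExpr and the robust quasi-likelihood fit. Genes with a Benjamini-Hochberg adjusted p under 0.05 were called. Alternatives were DESeq2 1.42.0, limma 3.58.1 on log2(TPM + 0.5) and log2(TPM + 0.1), other scalings, no filter, a replicate block and leaving out each library. The fits were tested on simulated counts with 200 changed genes. Those libraries were drawn independently, so the simulation does not cover libraries that form pairs, as described below.

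The members and gene lists were chosen with earlier results of these data known. Named relatives are, per list, direction and assay, up to 2 with the smallest adjusted p, plus family relatives. No 2 replicates agreed within sampling noise (lowest mean chi-square 5.4). LUAD footprint libraries 1 and 2 (12.8) and 3 and 4 (5.4) formed pairs, with 74.8 to 115 across them. In LUAD RNA the same pairs had 37.5 and 30.8, with 190 to 232 across them. AT2 footprint libraries 2 and 3 had 15.4, against 250 and 293 with library 1. AT2 RNA libraries 1 and 2 had 10.6, against 58.4 and 58.5 with library 3. The tests treated all libraries as separate, so p-values may be too small if paired libraries share a culture. Deviations from the group mean in same-numbered LUAD and AT2 libraries had correlations from 0.14 to 0.22 in RNA and from -0.25 to 0.34 in footprints. Differently numbered footprint pairs ran from -0.42 to 0.42. Differently numbered RNA pairs reached 0.21 (lowest -0.24), with libraries 1 and 2 of either tissue set against LUAD libraries 3 and 4 and AT2 library 3. No label pairs them.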

Additional observations from a re-analysis of the deposited data

Results flagged for a closer look

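Of 12 LUAD gene and assay values with 2 or more of 4 libraries above 0, 4 had 1 library that stood apart by Dixon's criterion, which chance meets in about 1 of 20 groups. In 2 others, Hspb8 and Dpp4 footprints, 3 libraries were at 0, so any count in the other library meets the criterion and no rate applies. LUAD library 1 was the highest in footprints of Ndnf (4.31 CPM), Hspb8 (0.761 CPM), Dpp4 (0.254 CPM) and Slco2a1 (3.81 CPM) and in RNA of Procr (88.2 CPM). LUAD library 4 was the highest in RNA of Fam3c (73.3 CPM). The values of Hspb8 and Dpp4 rest on 3 counts and 1 count. The summed CPM of AT2 markers in LUAD footprints was 895, 876, 804 and 775 in libraries 1 to 4, with library 1 the highest. In LUAD RNA it was 1780, 1878, 1909 and 1824, with library 1 the lowest. All of these values lay below the lowest AT2 library of the same gene and assay.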

How the results depend on the processing

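The log2 fold changes of the 8 genes kept their sign under all 14 alternatives run per assay (224 values, of which 34 moved by more than the replicate spread, 24 of them with TPM). Genes called in footprints were 1448, against 929 with a replicate block, 857 with log2(TPM + 0.5), 642 with log2(TPM + 0.1) and 842 to 1894 when 1 library was left out. In RNA 2575 were called, against 1632 to 3357 when 1 library was left out. Genes called in footprints per RNA were 50, against 368 with DESeq2, 107 with a replicate block and 11 to 419 when 1 library was left out, the highest without AT2 footprint library 1 and 246 without AT2 RNA library 3. The 16 related genes that fell in footprints became 3 with either TPM setting and 10 to 16 when 1 library was left out, and the 9 that rose 5 to 11. The cause of these differences was not tested. The block gave 500 genes lower and 429 higher in footprints (803 and 645 otherwise), and changed no RNA count and no count of related genes by over 1.5 times. With medians over libraries, 6 of 8 genes kept their place in the order of AT2 RNA levels, and all 8 in the other 3 orders. Scaling on all transcripts gave 500 genes lower and 1140 higher in footprints (803 and 645 otherwise) and 852 lower and 1900 higher in RNA (1253 and 1322 otherwise). Few counts limit Ndnf, Hspb8, Dpp4 and Slco2a1 in LUAD.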
